A study of Mus musculus with 9 samples.

Results

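The genes described here are 50 genes of DNA replication and S phase, a list drawn up by function, with earlier results of these arrays known. All 50 had a probe set of their own on the Affymetrix Mouse Gene 1.0 ST array, out of 19937 genes measured in this way. They were compared in 3 populations sorted by flow cytometry from steady-state bone marrow of C57Bl/6 mice that were 8 weeks old according to the labels and received no treatment. All cells were Ly6Chi CD115+. R1 cells were Flt3-CD11c-, R2 cells were Flt3+CD11c-, and R3 cells were Flt3+CD11c+. In the study, R1 and R2 are taken as monocytes, and R3 as pre-DCs, that is, precursors committed to dendritic cells. Each population had 3 arrays, numbered here by replicate, and each of the 3 dates in the titles (date 1, 2, or 3, as the replicate number) held 1 array of each population. The sources used here do not say what the dates mark or whether mice differed between arrays. P-values therefore measure only how far these arrays spread, and part of that spread may be technical. Levels are log2 of the deposited intensity of 1 probe set per gene. A probe set's level is compared only with its own level on other arrays, since probe sets differ in brightness for reasons other than mRNA abundance.

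Cells copy their genome in a fixed order of steps, and most of the genes that serve these steps are transcribed together as cells pass from G1 into S phase. Origins are first licensed, when the origin recognition complex, CDC6, and CDT1 load the MCM2–7 helicase on DNA. The helicase is then started by CDC45, the GINS complex, and MCM10, and polymerases follow the opened fork with the sliding clamp PCNA. E2F transcription factors switch this program on in late G1 (the activators E2F1 and E2F2) and off again later in S phase (the repressors E2F7 and E2F8). Precursors in the bone marrow divide, and monocytes and dendritic cells that have left it mostly do not, so these genes are commonly read as a sign of cycling cells.

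E2F factors bind near the start of many of these genes. The stretches that hold octamers known to be bound by E2F are shown for the 5 genes called in at least 1 comparison below that hold one (*Uhrf1*, *Gins3*, *Clspn*, *E2f2*, and *Pold1*) and for both genes where octamers overlap (*Mcm6* and *Mcm5*). Promoter sequences (250 bases before to 50 bases after each start, RefSeq, build GRCm38.p6) were found for 42 of the 50 genes. Letters searched, on both strands, were TTTGGCGC, TTTCCCGC, TTTCGCGC, and TTTGCCGC, and capitals mark a match on either strand. Each line gives the gene and its bases, 5′ to 3′ on the strand of the gene.
Mcm6: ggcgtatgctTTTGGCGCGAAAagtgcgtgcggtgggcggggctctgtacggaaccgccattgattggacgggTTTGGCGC
Mcm5: agcgccaagaacTTTCGCGCCAAAacgtcc
Uhrf1: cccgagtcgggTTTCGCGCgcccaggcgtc
Gins3: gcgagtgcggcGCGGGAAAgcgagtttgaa
Clspn: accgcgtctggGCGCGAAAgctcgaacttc
E2f2: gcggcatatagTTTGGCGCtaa
Pold1: cgtatcttgtgGCGGGAAAagc

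The *Mcm6* stretch is chr1:128359745-128359825 on the minus strand and held 3 octamers, of which the first pair overlap. *Mcm5* (chr8:75109344-75109373, plus strand) held such an overlapping pair too. The stretch of *Uhrf1* lies at chr17:56304117-56304146 on the plus strand and that of *Gins3* at chr8:95633507-95633536 on the plus strand. All 4 lie upstream of the start. In *Clspn* (chr4:126556990-126557019, plus strand) the octamer began 22 bases downstream of the start. In *E2f2* (chr4:136172302-136172323, plus strand) and *Pold1* (chr7:44548766-44548787, minus strand), the octamer began 40 bases downstream of an annotated start. At least 1 octamer was present in 18 of the 42 promoters (42.9%), against 543 of 15613 promoters of all measured genes (3.48%). In the 150 bases nearest the start, these values were 13 of 42 (31%) and 1.92%. The genes with an octamer were spread over licensing (*Orc1*, *Cdc6*, *Cdt1*, *Mcm3*, *Mcm5*, *Mcm6*, and *Mcm7*), the replisome (*Gins3*, *Pola1*, *Pole2*, *Pold1*, *Rfc3*, and *Lig1*), chromatin (*Uhrf1* and *Dnmt1*), E2F factors (*E2f2* and *E2f7*), and the checkpoint (*Clspn*). By contrast, TTTGAA, the core of an element known from promoters of mitosis genes, was present in 7 of the 42 (16.7%), against 17.3% of all measured genes and 13 of 18 promoters of a list of mitosis genes. The CCAAT box, searched as CCAAT, was present in 26 of the 42 (61.9%) and in 41.7% of all measured genes. A match of letters describes the sequence and is not a site shown to be bound.

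Few of the replication genes passed the threshold for a difference between the populations. By direction, 42 of the 50 were higher in R2 than in R1, against 44.3% of all genes, as given below. A gene was called when its Benjamini-Hochberg adjusted p in a limma fit over all 9 arrays was under 0.05. Between R3 and R2, 1 of the 50 genes was higher in R3 (*Pold1*) and 2 were lower (*E2f2* and *Ccne2*), against shares of 4.85% higher and 4.69% lower over all genes. Against R1, 6 members were higher in R3 (*Gins3*, *Prim1*, *Pole*, *Pold1*, *Uhrf1*, and *Clspn*) and 1 was lower (*E2f2*), against 6.49% and 7.02% of all genes. Between R2 and R1, none was called higher by limma and 1 was called lower (*E2f2*), against 0.211% and 0.181% of all genes. These shares are for calls at the adjusted p. At an unadjusted p under 0.05 in the same fit, 13 were higher and 1 lower in R2 than in R1. In R3, 16 were higher and 2 lower than in R1, and 3 were higher and 7 lower than in R2. Counts at an unadjusted limma p, here and below, have no share of all genes beside them. With the methods' t-test after Benjamini-Hochberg adjustment, *Pold1* stayed higher in R3 than in R2, *E2f2* stayed lower in R3 than in both, and no other member was called in any comparison. The comparisons share arrays, so that of R3 with R1 and that of R3 with R2 are not independent. In these sorted bulk samples, fewer cells in S phase and less mRNA per cell cannot be told apart.

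Most members that were not called were bounded within a 2-fold change, a range that most of the called differences kept to as well. Of the 47 members not called between R3 and R2, all had a 95% confidence interval of the difference inside a 2-fold change in either direction. Between R3 and R1 this held for 42 of 43, the exception being *Mcm10*, and between R2 and R1 for 48 of 49, the exception being *Rfc5*. The median width of the intervals was 0.32 log2 units to either side. Only *E2f2* differed by 2-fold or more between R3 and R2, *E2f2* and *Pold1* did so between R3 and R1, and no member did so between R2 and R1.

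**Figure D1:**
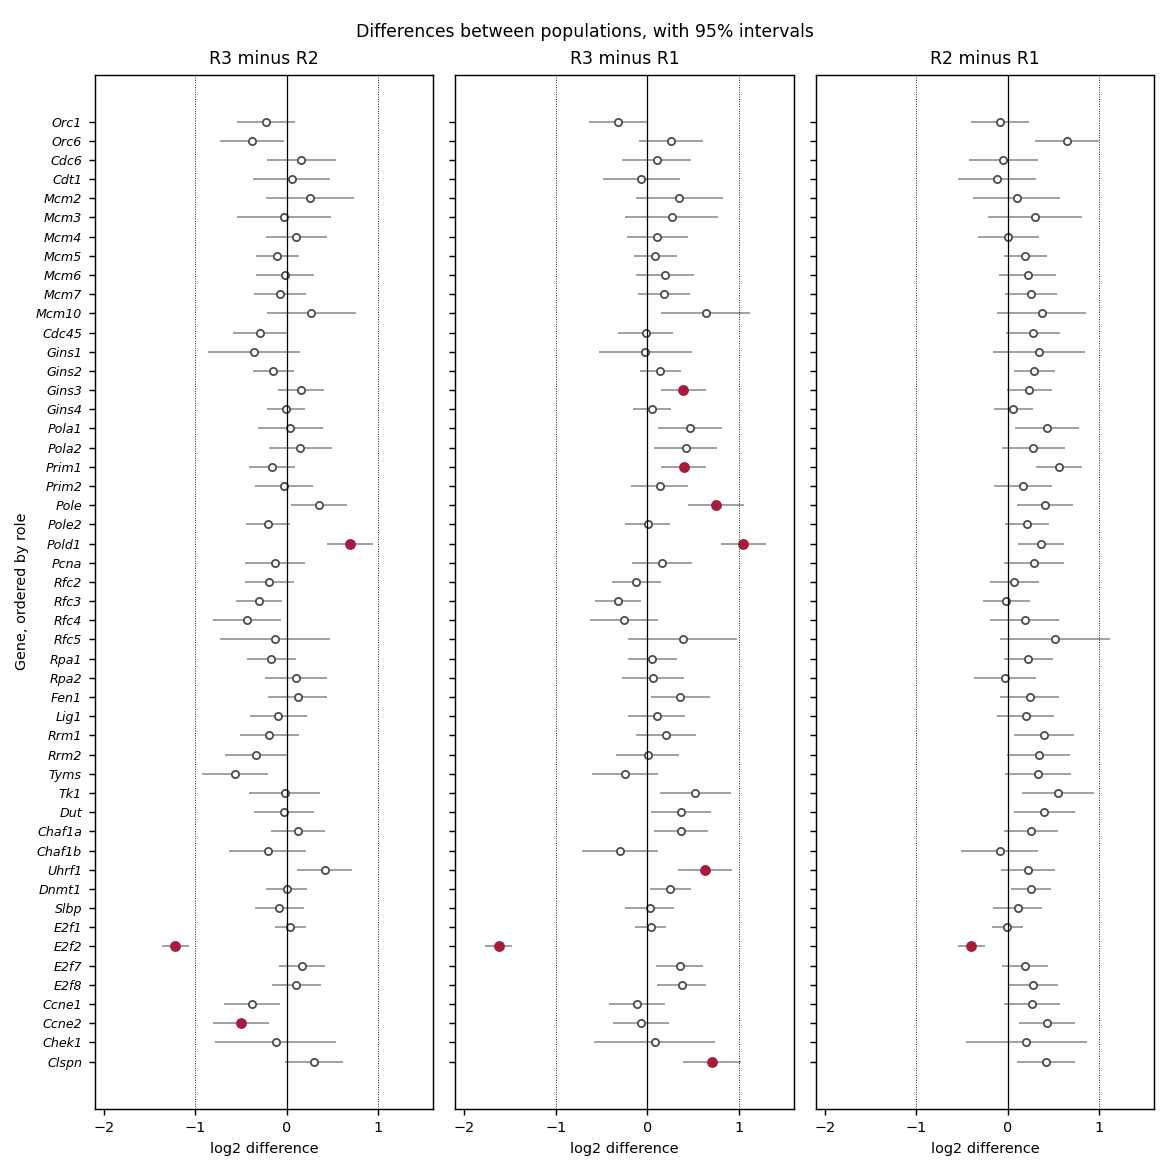
Log2 difference of each of the 50 genes (rows, ordered by role) between R3 and R2, R3 and R1, and R2 and R1, with 95% confidence intervals of the limma fit. Filled red points are called at an adjusted p under 0.05, and dotted lines mark a 2-fold change, which *E2f2* passed in the first and second panels and *Pold1* in the second panel.

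Much of the excess of R2 and R3 over R1 came with a single array. The median difference of the members was -0.05 between R3 and R2 (18 of 50 positive), 0.14 between R3 and R1 (38 positive), and 0.24 between R2 and R1 (42 positive). The medians of all genes were -0.007, -0.02, and -0.02, and 47.6%, 44.3%, and 44.3% of all genes were positive. With each array centred on its own median, the members' median between R3 and R2 was 0.00073, so its sign is not settled. R1 replicate 1 was the lowest of the 9 arrays for 39 of the 50 members, against 15.4% of all genes, and R3 replicate 2 was the lowest for 9 members, against 14% of all genes. The mean over the members was 8.57 on R1 replicate 1, 8.93 and 9.08 on the other R1 arrays, 9.05 to 9.12 in R2, and 8.95 to 9.06 in R3. Without R1 replicate 1, the median difference between R3 and R1 was 0.002 (25 of 50 positive) and that between R2 and R1 was 0.11 (35 positive). In R3, 4 members were then called higher and 2 lower against R1 (5.95% and 8.31% of all genes), 3 higher and 3 lower against R2 (5.64% and 5.31% of all genes), and none by limma between R2 and R1. Without R1 replicate 3 instead, 12 were called higher in R3 than in R1, against 6.36% of all genes. Without the 3 arrays of date 1, the median difference between R3 and R1 was -0.01, with 3 members called higher and 1 lower (3.4% and 5.23% of all genes).

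The dates showed the same unevenness. On date 1, 46 of the 50 members were higher in R3 than in R1 (median 0.45) and 48 in R2 than in R1 (median 0.51). On date 2, R3 was above R1 for 22 members and below for 26 (median -0.01), and on date 3, 23 were higher and 27 lower (median -0.03). Between R2 and R1, 36 were higher on date 2 (median 0.14) and 28 on date 3 (median 0.04). Between R3 and R2 the medians were -0.06, -0.11, and -0.03 on dates 1 to 3, with 17, 17, and 23 members higher in R3. In R1 the median SD of a member over the 3 arrays was 0.27, against 0.13 for all genes, and it was 0.12 without replicate 1. In R2 and R3 it was 0.09 and 0.12, against 0.09 and 0.10 for all genes. Whether R1 replicate 1 differed in cells or in handling was not tested.

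**Figure D2:**
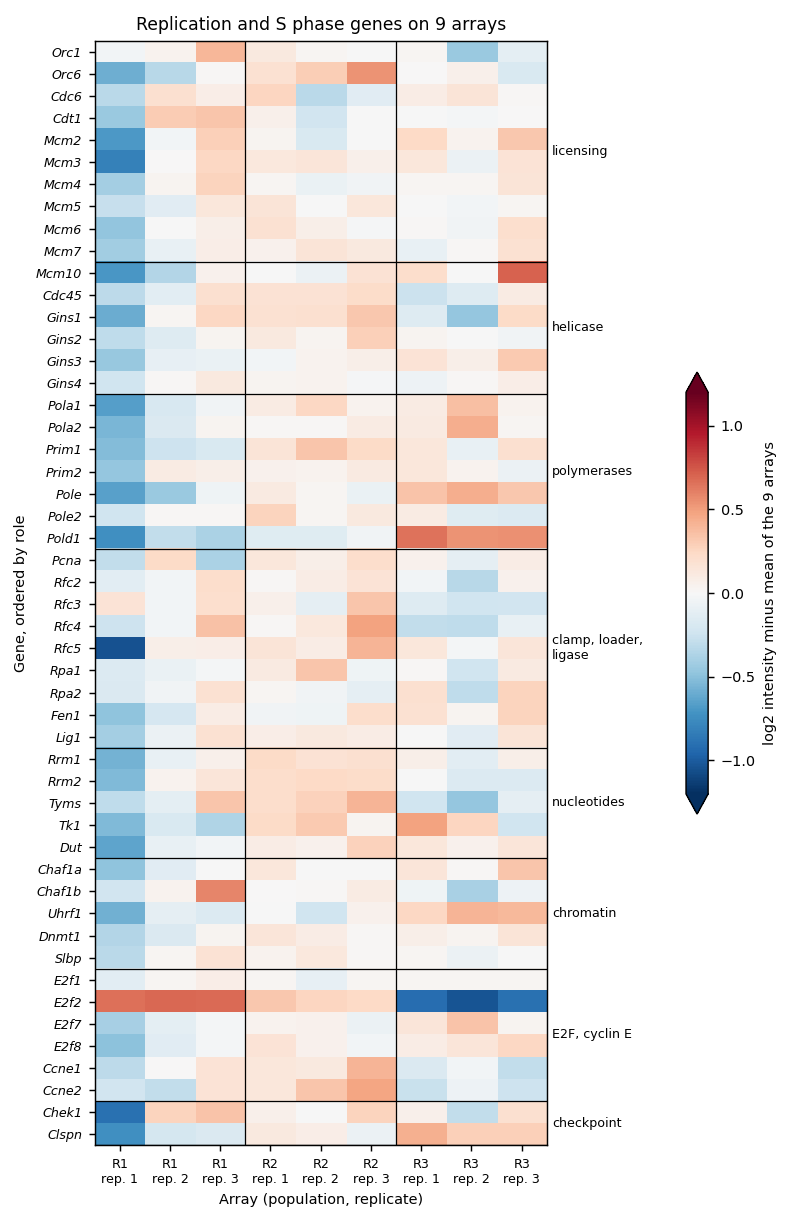
Log2 intensity of the 50 genes (rows, ordered by role) on the 9 arrays (columns, by population and replicate), each minus the gene's mean over the 9 arrays, on a color scale in log2 units. The first column, R1 replicate 1, is the lowest array for 39 of the 50 genes, *E2f2* falls from left to right, and *Pold1* is high in the last 3 columns.

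The E2F factors gave the clearest difference and the flattest gene. *E2f2*, which encodes an activator E2F that drives entry into S phase, read 9.60, 9.62, and 9.62 on the R1 arrays, 9.26, 9.20, and 9.18 on the R2 arrays, and 8.03, 7.90, and 8.05 on the R3 arrays. The 3 populations did not overlap, and the order R1, R2, R3 held on each date. *E2f2* was 1.22 log2 units lower in R3 than in R2 (SE 0.06, limma adjusted p = 5.21e-06), and it was 1.62 lower in R3 than in R1 (SE 0.06, limma adjusted p = 6.51e-07), that is, 0.325-fold of the R1 level. Both calls held in all 21 alternative analyses. R2 was 0.40 lower than R1 (limma adjusted p = 0.0469), a call that was lost with the date as a replicate block (adjusted p = 0.0935) and held in 5 of the 21 alternatives. *E2f1*, the other activator in the list, read 7.83, 7.99, and 8.04 in R1, 7.99, 7.87, and 7.99 in R2, and 7.99 on all 3 R3 arrays. Its largest difference between populations was 0.04 (R3 minus R2), with SE 0.07.

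Among 9 neutrophil and promyelocyte markers, the granule protein genes were split between R3 and the other populations. *Mpo*, *Elane*, *Prtn3*, and *Ctsg* were called lower in R3 than in both R1 and R2, by 2.51 to 4.45 log2 units, and these were the 4 called genes of the list. *Ngp*, *Ltf*, and *Camp*, genes of granule proteins made later in the lineage, had higher means in R3, by 2.07, 1.63, and 0.86 against R2 and by 2.89, 1.74, and 1.98 against R1. They spread widely over the R3 arrays (SD 2.25, 1.99, and 2.32, n = 3) and were not called, but *Ngp* was called higher than in R1 with the replicate block (adjusted p = 0.0138), and without R3 replicate 2 all 3 were called higher than in R1 (adjusted p = 0.00762, 0.0077, and 0.0305) and *Ngp* and *Ltf* higher than in R2 (adjusted p = 0.027 and 0.012). In the other direction, *S100a8* was 1.42 lower in R3 than in R2 and was not called (limma adjusted p = 0.266). Without R3 replicate 1 it was called lower than in R2 (difference -2.14, limma adjusted p = 0.0387). The mean of the 9 markers was 8.40 to 9.20 in R1, 8.97 to 9.56 in R2, and 6.81 to 8.75 in R3. Unlike *E2f2*, the 4 called genes were each 0.69 to 0.75 higher in R2 than in R1, and none of these differences was called. Among erythroid markers, whose lineage is known for high *E2f2*, *Klf1* read 4.68 ± 0.03 in R1, 4.61 ± 0.06 in R2, and 4.65 ± 0.06 in R3 (SD, n = 3). The mean of the 4 erythroid markers measured was 5.63 to 5.74 in R1, 5.94 to 6.12 in R2, and 6.62 to 6.69 in R3, and the single one called in R3 was *Tfrc*, the transferrin receptor gene, which was higher in R3 by 2.51 (against R2) and 3.49 (against R1). The part of other cell types in the *E2f2* difference was not tested.

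The repressors E2F7 and E2F8 act later in S phase. *E2f7* read 8.22, 8.50, and 8.59 in R1, 8.65, 8.66, and 8.55 in R2, and 8.76, 8.95, and 8.65 in R3. *E2f8* read 9.90, 10.26, and 10.37 in R1, 10.55, 10.44, and 10.36 in R2, and 10.48, 10.54, and 10.64 in R3. In both genes the R3 arrays lay above all R1 arrays, but the differences of 0.35 and 0.38 were not called (limma adjusted p = 0.0759 and 0.0745). The cyclin E genes, whose products activate CDK2 at the start of S phase, were lower in R3 than in R2 on every array. *Ccne2* read 8.19, 8.12, and 8.58 in R1, 8.55, 8.75, and 8.89 in R2, and 8.15, 8.36, and 8.17 in R3. R3 lay below R2 without overlap, by 0.51 (SE 0.14, limma adjusted p = 0.0485), and the call held in 7 of 21 alternatives, the replicate block among them (adjusted p = 0.0423). *Ccne1* was 0.38 lower in R3 than in R2, also without overlap, and was not called (limma adjusted p = 0.137).

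Among the polymerase genes, those of the catalytic subunits of delta and epsilon were called higher in R3 than in R1. *Pold1*, the catalytic subunit of polymerase delta, which copies the lagging strand, read 7.91, 8.35, and 8.27 in R1, 8.50, 8.50, and 8.60 in R2, and 9.30, 9.19, and 9.19 in R3. Its 3 populations did not overlap, in the order opposite to that of *E2f2*. Both promoters carry an E2F octamer downstream of a start, as printed above. R3 was 0.69 higher than R2 (1.61-fold, SE 0.11, limma adjusted p = 0.00358) and 1.05 higher than R1 (2.07-fold, SE 0.11, limma adjusted p = 0.000221). Without R1 replicate 1 the second value was 0.92 (adjusted p = 0.000134). The call against R2 was lost when the 3 arrays of date 2 or of date 3 were left out (adjusted p = 0.0683 and 0.0694), with 2 arrays per population remaining.

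*Pole*, the catalytic subunit of polymerase epsilon, which copies the leading strand, read 7.80, 8.01, and 8.40 in R1, 8.57, 8.48, and 8.38 in R2, and 8.80, 8.89, and 8.78 in R3. All R3 arrays lay above all others. R3 was 0.75 higher than R1 (1.68-fold, SE 0.14, limma adjusted p = 0.00568; 0.61 without R1 replicate 1, adjusted p = 0.0115), whereas the difference of 0.35 from R2 was not called (adjusted p = 0.186). The call was lost without date 1 (adjusted p = 0.063) or date 2 (adjusted p = 0.151). The subunits of polymerase alpha, which lays the primers with primase, differed by 0.04 and 0.14 between R3 and R2, with no call. *Pola1* read 8.16, 8.63, and 8.78 in R1, 8.91, 9.06, and 8.86 in R2, and 8.92, 9.18, and 8.86 in R3. *Pola2* read 7.32, 7.70, and 7.90 in R1, 7.89, 7.89, and 7.97 in R2, and 7.97, 8.30, and 7.89 in R3. For *Pola1*, R2 and R3 lay above every R1 array and did not differ beyond their spread, with 0.04 between them and SE 0.16. *Prim1*, the catalytic primase subunit, read 8.56, 8.83, and 8.90 in R1, 9.24, 9.42, and 9.31 in R2, and 9.22, 8.99, and 9.27 in R3. R3 lay above R1 without overlap, by 0.40 (limma adjusted p = 0.0435), a call that was lost with the replicate block (adjusted p = 0.0564) and held in 5 of 21 alternatives. *Prim1* also had the lowest unadjusted p among members higher in R2 than in R1 (difference 0.56, limma adjusted p = 0.0871). *Prim2* and *Pole2*, the accessory subunits, differed by at most 0.21 in any comparison and were not called.

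**Figure D3:**
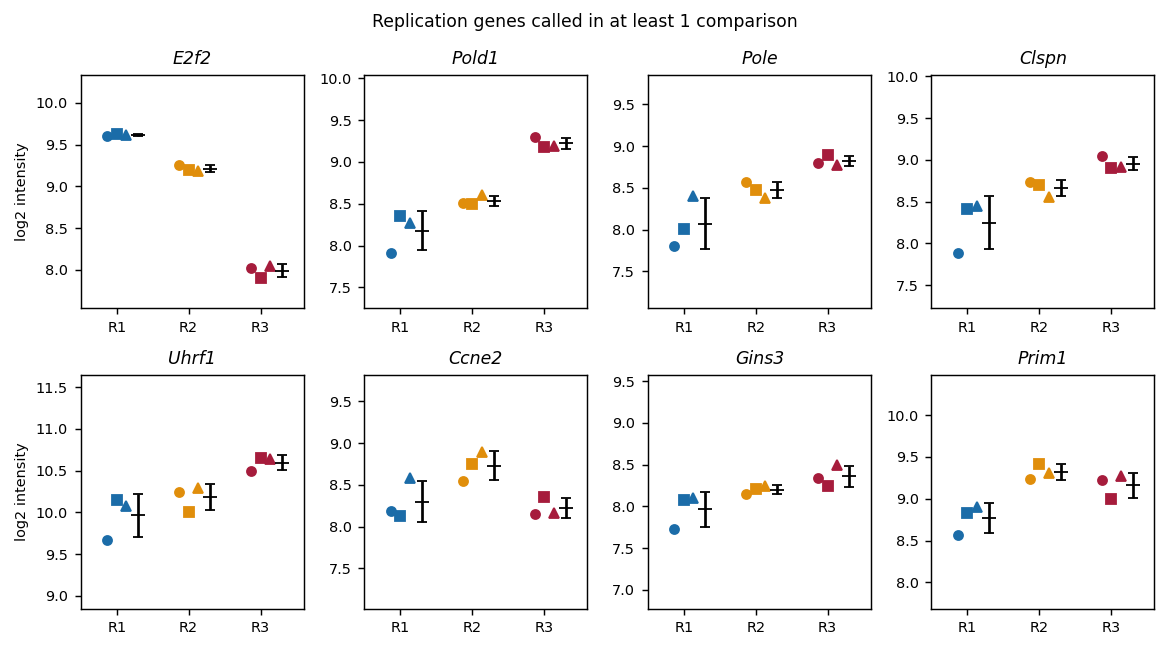
Log2 intensity of the 8 genes called in at least 1 comparison, by population (circles, squares, and triangles are replicates 1, 2, and 3), with the mean and SD of 3 arrays beside the points. The vertical axes have the same length but different origins, so levels are compared within a panel only; the mean of *E2f2* steps down from 9.61 in R1 to 7.99 in R3, and that of *Pold1* rises from 8.18 to 9.23.

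Licensing genes showed no call in any comparison. *Orc1*, the largest subunit of the origin recognition complex, read 6.54, 6.62, and 6.97 in R1, 6.69, 6.60, and 6.57 in R2, and 6.60, 6.13, and 6.45 in R3. *Cdc6*, which joins this complex to load the helicase, read 7.36, 7.88, and 7.77 in R1, 7.95, 7.36, and 7.55 in R2, and 7.78, 7.84, and 7.71 in R3. *Cdt1*, the partner of CDC6 in loading, read 8.41, 9.17, and 9.19 in R1, 8.92, 8.64, and 8.86 in R2, and 8.86, 8.84, and 8.87 in R3. For these 3 genes the populations overlapped in every comparison. Without R1 replicate 1, *Cdt1* was 0.32 lower in R3 than in R1 and passed the threshold (limma adjusted p = 0.0495).

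The MCM2–7 genes encode the ring that unwinds DNA. *Mcm2* read 8.28, 8.93, and 9.25 in R1, 8.997, 8.78, and 8.97 in R2, and 9.21, 9.01, and 9.29 in R3. *Mcm3* read 8.77, 9.59, and 9.84 in R1, 9.71, 9.73, and 9.65 in R2, and 9.72, 9.52, and 9.75 in R3. *Mcm4* read 9.09, 9.53, and 9.77 in R1, 9.53, 9.42, and 9.46 in R2, and 9.53, 9.53, and 9.66 in R3. In each of them R1 overlapped both other populations, and R1 replicate 1 was the lowest array. *Mcm5*, *Mcm6*, and *Mcm7* differed between populations by 0.25 at most. *Orc6*, another subunit of the origin complex, had the largest difference between R2 and R1 of all members (0.64 higher in R2, without overlap), which was not called (limma adjusted p = 0.15).

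Of the genes that start the helicase, *Mcm10* varied most. It read 7.77, 8.12, and 8.52 in R1, 8.46, 8.40, and 8.65 in R2, and 8.68, 8.46, and 9.18 in R3. The difference of 0.64 between R3 and R1 was not called without the date in the fit (limma adjusted p = 0.0925) and was called with the replicate block (adjusted p = 0.0197). *Gins3*, a subunit of the GINS complex that holds CDC45 to the ring, read 7.72, 8.08, and 8.10 in R1, 8.14, 8.21, and 8.24 in R2, and 8.34, 8.24, and 8.49 in R3. R3 lay above R1 without overlap, by 0.39 (limma adjusted p = 0.0455), and the call held in 5 of 21 alternatives. *Gins2*, of the same complex, read 8.76, 8.90, and 9.10 in R1, 9.18, 9.10, and 9.34 in R2, and 9.10, 9.06, and 9.02 in R3, with no call. *Cdc45*, *Gins1*, and *Gins4* were not called either, and *Cdc45* was 0.29 lower in R3 than in R2 without overlap (limma adjusted p = 0.267).

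The 4 small clamp loader genes among the members, *Rfc2* to *Rfc5*, whose products help place PCNA on DNA, had lower means in R3 than in R2, by 0.13 to 0.43, with no call. *Rfc1*, the large subunit, which is not a member, was 0.53 higher in R3 than in R2 and was not called (limma adjusted p = 0.0675). *Rfc3* read 8.97, 8.78, and 9.01 in R1, 8.87, 8.71, and 9.14 in R2, and 8.65, 8.57, and 8.58 in R3. All R3 arrays lay below all others, and the differences of -0.31 from R2 and -0.32 from R1 were not called (limma adjusted p = 0.157 and 0.105). *Rfc4* lay 0.43 lower in R3 than in R2, which was called with the replicate block (adjusted p = 0.0221) and not without it (limma adjusted p = 0.173). *Rfc5* read 8.85, 9.97, and 9.97 in R1, 10.05, 9.98, and 10.30 in R2, and 10.03, 9.87, and 10.04 in R3, so that a single array of 9 stood apart. *Rpa2*, which coats single-stranded DNA, read 8.46, 8.58, and 8.81 in R1, 8.65, 8.58, and 8.52 in R2, and 8.82, 8.33, and 8.90 in R3. *Fen1*, the flap nuclease that trims Okazaki fragments, read 7.82, 8.10, and 8.39 in R1, 8.25, 8.25, and 8.51 in R2, and 8.48, 8.33, and 8.56 in R3. Neither gene was called, and their populations overlapped. *Pcna*, *Rfc2*, *Rpa1*, and *Lig1* differed by at most 0.29 in any comparison, and none was called.

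Genes of nucleotide supply were highest in R2 by direction. All 5 were higher in R2 than in R1 (0.33 to 0.55) and lower in R3 than in R2 (by 0.03 to 0.57), and none was called. *Tyms*, the thymidylate synthase gene, read 9.47, 9.65, and 10.11 in R1, 9.98, 10.04, and 10.17 in R2, and 9.53, 9.30, and 9.67 in R3. R3 lay below R2 without overlap, by 0.57 (limma adjusted p = 0.0606), and the difference was called with the replicate block (adjusted p = 0.0224). *Rrm2*, the regulated subunit of ribonucleotide reductase, was 0.33 lower in R3 than in R2 and was called without R1 replicate 1 (limma adjusted p = 0.0147) but not with it (0.286). *Dut*, which keeps uracil out of DNA, read 8.32, 8.86, and 8.92 in R1, 9.05, 9.01, and 9.24 in R2, and 9.10, 9.01, and 9.10 in R3. *Tk1*, the thymidine kinase of the salvage route, read 8.99, 9.34, and 9.16 in R1, 9.75, 9.84, and 9.55 in R2, and 9.999, 9.78, and 9.29 in R3. Its second probe set read 7.90, 8.26, and 8.35 in R1, 8.93, 8.71, and 8.99 in R2, and 8.22, 8.81, and 8.20 in R3. Both probe sets of *Tk1* thus had R2 above R1 without overlap, and they disagreed on R3.

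Among genes that restore chromatin behind the fork, *Uhrf1* stood apart. UHRF1 recognizes hemimethylated DNA and brings in the maintenance methyltransferase DNMT1. *Uhrf1* read 9.67, 10.14, and 10.08 in R1, 10.24, 10.01, and 10.30 in R2, and 10.49, 10.65, and 10.64 in R3. All R3 arrays lay above all others, by 0.63 on average from R1 (1.55-fold, SE 0.13, limma adjusted p = 0.0118; 0.48 without R1 replicate 1, adjusted p = 0.0161). The difference of 0.41 from R2 was not called (adjusted p = 0.0985) and was called without R1 replicate 1 (adjusted p = 0.0231). The call against R1 was lost without date 2 (adjusted p = 0.0699) or date 3 (adjusted p = 0.104). *Dnmt1* itself was level between R3 and R2 (-0.00043) and was 0.25 higher in each than in R1, with no call. *Chaf1a*, the large subunit of the histone chaperone CAF-1, read 8.28, 8.63, and 8.76 in R1, 8.90, 8.76, and 8.76 in R2, and 8.91, 8.78, and 9.10 in R3. Its partner subunit *Chaf1b* read 6.92, 7.19, and 7.74 in R1, 7.16, 7.17, and 7.25 in R2, and 7.10, 6.76, and 7.10 in R3. Neither subunit was called in any comparison.

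Of the checkpoint pair, *Clspn* was called and *Chek1* was not, and the difference between them was not tested. *Clspn*, whose product claspin links stalled forks to the kinase CHK1, read 7.88, 8.41, and 8.45 in R1, 8.73, 8.70, and 8.55 in R2, and 9.05, 8.91, and 8.91 in R3. The 3 populations did not overlap, and R3 was 0.71 higher than R1 (1.63-fold, SE 0.14, limma adjusted p = 0.00919; 0.53 without R1 replicate 1, adjusted p = 0.00377). That call was lost without date 2 (adjusted p = 0.0903) or date 3 (adjusted p = 0.0554). *Chek1*, which encodes CHK1, read 6.63, 7.79, and 7.86 in R1, 7.58, 7.51, and 7.79 in R2, and 7.58, 7.22, and 7.71 in R3. It had the widest interval of all members, with R1 replicate 1 far below the other arrays, and no call. Its difference between R3 and R1 was 0.08 (95% confidence interval -0.58 to 0.74), and on date 1 alone it was 0.95, beside 1.16 for *Clspn*.

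By separation of arrays, 5 members lay above and 11 below R2 on all R3 arrays, where 12.6% and 12.2% of all genes did so. Against R1, 11 members lay above and 2 below on all R3 arrays (11.6% and 12.9% of all genes). All R2 arrays lay above all R1 arrays for 12 members and below for 1 (5.44% and 7.99% of all genes). The 12 were *Orc6*, *Gins3*, *Pola1*, *Prim1*, *Pole2*, *Pold1*, *Rfc5*, *Rrm1*, *Rrm2*, *Tk1*, *Dut*, and *Clspn*.

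Other genes of the same pathways were read from lists written by function. Of 37 further replication genes, 4 stood higher in R3 against R1 with a call, namely *Ticrr* (0.80) and *Mtbp* (0.68), whose products help load CDC45, *Cdc7* (0.76), the kinase that fires origins, and *Rfc1* (0.62), and 1 was lower. Of all genes, 6.49% and 7.02% were called so. Without R1 replicate 1, 3 were higher and 3 lower (5.95% and 8.31% of all genes). The higher count was 3 with the replicate block (6.56%), 7 with quantile normalization (7.91%), and 2 with centring (4.95%). It was 1 without date 1 (3.4%) and 0 by the methods' t-test after adjustment (1.44%). Between R3 and R2, 0 were called higher by limma and 1 lower (4.85% and 4.69% of all genes). At an unadjusted p under 0.05 in that fit, 2 were higher and 6 lower. By the methods' t-test after adjustment, 1 was higher and 0 lower (2.2% and 2.28% of all genes). Between R2 and R1 none was called by limma (0.211% of all genes higher and 0.181% lower). There, 10 were higher and 0 lower at an unadjusted p under 0.05. The medians of that list were -0.001, 0.16, and 0.21 for R3 minus R2, R3 minus R1, and R2 minus R1, and without R1 replicate 1 the differences from R1 were 0.04 and 0.12. Of 16 further genes of nucleotide supply, 3 were lower in R3 than in R2, among them *Nme1* (-0.78), a nucleoside diphosphate kinase gene, and 2 were lower in R3 than in R1, *Nme1* (-0.75) and *Samhd1* (-0.48), which encodes an enzyme that breaks down deoxynucleotides. Of all genes, 4.69% and 7.02% were called lower in these comparisons. *Dtymk* was higher in R2 than in R1, and that call was lost with the replicate block.

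Of 18 further genes of the E2F and retinoblastoma pathway, 2 were called higher in R3 against R2, and 6 against R1 (4.85% and 6.49% of all genes). None was called lower in R3 in the limma fit reported, and 4 were higher and 2 lower against R2 at an unadjusted p under 0.05. The 6 fell to 3 with the replicate block (6.56% of all genes) and to 2 without R1 replicate 1 (5.95%). They fell to 0 with each array centred on its median (4.95%) and by the methods' t-test after adjustment (1.44%). Without R1 replicate 1, 2 were also called lower in R3 than in R1 (8.31% of all genes). *E2f3*, the remaining activator E2F, was called higher in R3 against both populations, with 7.91 ± 0.27 in R1, 7.81 ± 0.03 in R2, and 8.43 ± 0.02 in R3 (SD, n = 3). It was 0.62 higher in R3 than in R2 (limma adjusted p = 0.00988), the direction opposite to *E2f2*, while *E2f1* differed by 0.04. Of 17 genes of recombination and fork protection, R3 was called higher for 2 against R2 and for 7 against R1. The largest differences from R1 were those of *Fancd2* (0.90) and *Bard1* (0.85). The count against R1 was 7 with the replicate block or without R1 replicate 1 (6.56% and 5.95% of all genes). It was 8 with quantile normalization (7.91%), 5 with centring (4.95%), 4 without date 1 (3.4%), and 1 by the methods' t-test after adjustment (1.44%). *Msh6*, a mismatch repair gene, was 0.72 higher in R3 than in R2 (limma adjusted p = 0.000366).

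Mitosis genes act after replication is complete. Of 21 measured, 14 were called higher in R3 than in R1 (median 0.60) and 4 higher in R2 than in R1 (median 0.52), and 1 was higher in R3 than in R2 (median 0.08). Of all genes, 6.49%, 0.211%, and 4.85% were called so. *Cenpf*, a kinetochore gene, had the largest differences of the list, 1.24 between R3 and R1 and 0.91 between R2 and R1. Without R1 replicate 1, 12 were called between R3 and R1 (median 0.43) and 3 between R2 and R1 (median 0.40). Of all genes, 5.95% and 0.0953% were then called higher. Without the arrays of date 1 the counts of the list were 8 and 0, against 3.4% and 0% of all genes. With the replicate block they were 16 and 1, against 6.56% and 0.0752%. They were 19 and 8 with quantile normalization, against 7.91% and 0.502%. By the methods' t-test after adjustment they were 4 and 0, against 1.44% and 0%. With each array centred on its median, 9 and 1 were called, against 4.95% and 0.0351%. On the same arrays, the medians of the 50 replication genes without R1 replicate 1 were 0.002 and 0.11. Whether the 2 lists differ from each other was not tested.

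**Figure D4:**
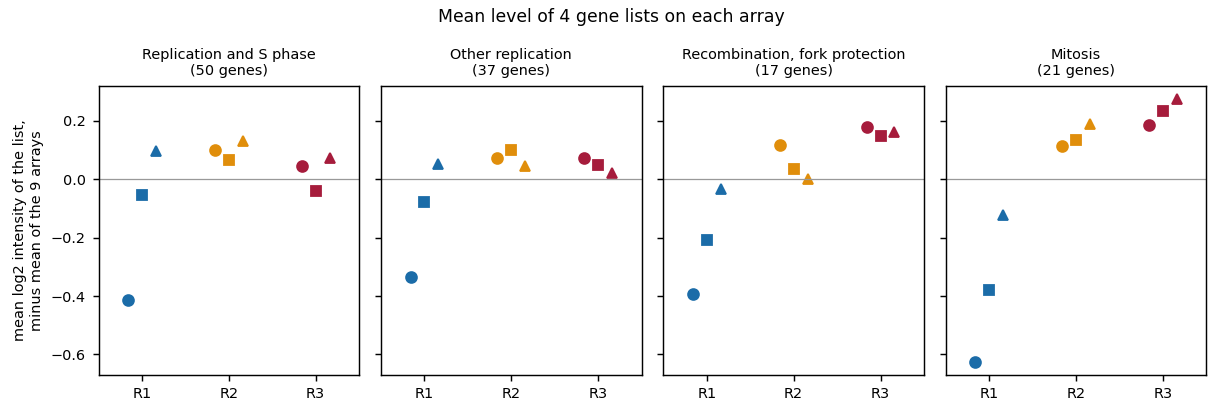
Mean log2 intensity of 4 gene lists on each of the 9 arrays, minus the mean of the 9 arrays (circles, squares, and triangles are replicates 1, 2, and 3). For the 50 replication genes the means of R1 replicates 2 and 3 (8.93 and 9.08) are near those of the R2 and R3 arrays (8.95 to 9.12), whereas for the 21 mitosis genes all 3 R1 arrays lie below all R2 and R3 arrays.

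The labels were checked on marker genes. All 8 pre-DC and DC markers, *Flt3*, *Itgax* (the gene of CD11c), and *Zbtb46* among them, were higher in R3 than in both other populations, and 4 of 7 monocyte markers were lower in R3 than in R2. *Flt3* was 0.68 higher in R2 than in R1, which was not called (limma adjusted p = 0.281), although the sort separated R2 from R1 by Flt3. Of the same 8 markers, only *Clec9a* was called higher in R2 than in R1 (1.865, limma adjusted p = 0.0132). Of the 7 monocyte markers, only *Itgam* was called lower in R2 than in R1 (-0.58, limma adjusted p = 0.0459). *Tfrc* was called higher in R2 than in R1 (0.98, limma adjusted p = 0.0236). The calls of *Itgam* and *Tfrc* were lost with the replicate block. Of 8 markers of B cells and their precursors none was called in any comparison in the limma fit reported (2 higher in R3 at an unadjusted p under 0.05 against either population). *Vpreb1*, a precursor marker, was called higher in R3 than in R2 with the replicate block (difference 0.94, adjusted p = 0.0459) and than in R1 without R1 replicate 1 (1.07, adjusted p = 0.0455), and *Igll1* was called higher in R3 than in R1 with centring (0.60, adjusted p = 0.0483) or quantile normalization (0.65, adjusted p = 0.0366). *Cd27*, *Sox4*, and *Kit*, 3 of 8 markers of stem cells and progenitors, were higher in R3 than in R1, with a mean of the 8 of 5.82 to 6.04 in R1, 6.06 to 6.33 in R2, and 6.38 to 6.57 in R3. These move in the same direction as *Pold1*, *Pole*, *Uhrf1*, and *Clspn*, and their part in those differences was not tested.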

How the data were processed

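The authors amplified 1 ng RNA per sample with a NuGEN kit, labeled the cDNA with biotin, hybridized it to gene arrays by Affymetrix, and analyzed the scans with GenePattern. They deposited linear intensities, 1 per probe set and array, with medians from 58.0 to 64.7 (the number of arrays limits the precision). The sources used here do not state the background correction, summarization, or normalization.

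Intensities were put on the log2 scale. The annotation gives 21640 of 34760 probe sets to 1 gene, 1321 to several, and 11799 to none. Each of 19937 genes was read from the probe set of its own with the highest mean. Populations came from the labels and entered 1 two-sided limma model (version 3.58.1, in R 4.3.3), with Benjamini-Hochberg adjustment over all genes. Scripts were tested on simulated data.

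The members and lists were chosen with earlier results of these data known. Values on every array are given for 29 members: in each role the 3 with the largest difference between R3 and R1, any called between R2 and R1, and any whose sign between R3 and R2 opposed the members' median. *Ccne2* and *Prim1* were added after their values were seen, as called members. Of the other lists at most 4 genes with the largest differences are named, and *Dtymk*, *Ngp*, *Ltf*, *Camp*, and *S100a8* were added after their values were seen. Core histone genes were sought by older prefixes, which matched 0 symbols, and then by newer names.

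The replicate number marks a shared date in the titles. Deviations of same-date arrays from their population means correlated at -0.0244 to 0.152 over all genes and at -0.167 to 0.352 over the members. Alternatives were the date as a replicate block, centring or quantile scaling, a filter on dim genes, the mean of all probe sets, array weights, a variance trend, only the populations compared, the methods' t-test, and leaving out arrays or dates.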

Additional observations from a re-analysis of the deposited data

How the results depend on the processing

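The called differences of members kept their direction in all 21 alternatives with an adjusted p. Of the uncalled ones, 14 of 47 (R3 minus R2), 21 of 43 (R3 minus R1), and 16 of 49 (R2 minus R1) changed sign in at least 1 alternative, and 6, 12, and 2 were called in at least 1. The members' median changed sign between R3 and R2 with centring (0.00073) and between R3 and R1 without the arrays of date 1 (-0.01). Counts of called members changed more. Higher in R3 than in R2 were 1 member in the fit reported (4.85% of all genes), 2 with quantile normalization (5.38%) or array weights (6.27%), and 3 with only the populations compared (4.93%). By the methods' t-test with a 2-fold minimum it was 0 (1.35% of all genes; 0 to 3 when arrays or dates were left out). Lower in R3 than in R2 were 2 members (4.69% of all genes), and 1 with centring (3.43%), a variance trend (4.71%), or either form of the t-test (2.28% and 1.65%). The count was 4 with only the populations compared (4.78%), and 4 with the replicate block (4.73%), which added *Rfc4* and *Tyms* (1 to 3 when arrays or dates were left out). Higher in R3 than in R1 were 6 members, 12 with quantile normalization (7.91% of all genes), 10 among genes at or above the median intensity (13.8% of those genes), 0 by the adjusted t-test (1.44% of all genes), and 1 by the t-test with a 2-fold minimum (1.5% of all genes; 1 to 12 when arrays or dates were left out). Lower in R3 than in R1 was 1 member (7.02% of all genes; 1 to 2 when arrays or dates were left out). Higher in R2 than in R1 were 0 members by limma (0.211% of all genes). With quantile normalization (0.502%) or array weights (0.858%) it was 1, *Prim1* (0 to 1 when arrays or dates were left out). Lower in R2 than in R1 was 1 member, *E2f2* (0.181% of all genes). The count was 0 with centring, the replicate block, only the populations compared, a variance trend, or either t-test (0 to 1 when arrays or dates were left out). In those settings at most 0.0803% of all genes were called lower. The replicate block also ended the call of *Prim1* between R3 and R1 and added *Mcm10* there, and it changed no other call of a member. Over all genes, 42 were called higher and 36 lower in R2 than in R1, 7 and 13 with centring, and 100 and 44 with quantile normalization. The causes were not tested. With 3 arrays per population, a missing call does not show equal levels.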

Other observations

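Core histone genes, most but not all of whose mRNAs are made in S phase, are not among the 50 genes. They were read under their newer symbols (22 measured). Many are near-identical copies, so values of single genes are uncertain. Of the 22, 6 were called higher in R3 than in R1 (median 0.34) and 1 in R3 than in R2 (median 0.0009). Of all genes, 6.49% and 4.85% were called so. None was called between R2 and R1 by limma, where the median was 0.33, and 14 were higher and 1 lower at an unadjusted p under 0.05. The call in both comparisons of R3 was *H2bc21*, with 9.28 ± 0.18 in R1, 9.20 ± 0.26 in R2, and 10.19 ± 0.17 in R3 (SD, n = 3), 0.98 higher in R3 than in R2 (limma adjusted p = 0.00252). Unlike the list median, its difference between R2 and R1 was -0.08, and whether its mRNA follows S phase was not tested. The mean of the list was 8.90 on R1 replicate 1, 9.13 and 9.17 on the other R1 arrays, and 9.25 to 9.45 on the R2 and R3 arrays.

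Of the 50 replication genes, 15 (30%) had exactly the same deposited value on at least 2 arrays, against 55.7% of all genes. *E2f1* was among them, with the same value on an array of each population. Second probe sets existed for *Pcna* and *Slbp* as well as *Tk1*, and they read 11.76 to 11.99 for *Pcna* and 9.36 to 9.78 for *Slbp*. In these second probe sets, R1 replicate 1 was the lowest of the 9 arrays. In the *Pcna* probe set used above, R1 replicate 3 was the lowest (11.86), and R1 replicate 1 read 11.95.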
